A study of Mus musculus with 6 samples.

Results

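The death ligands, their receptors and the proteins that act directly below them were followed in RNA-seq libraries reported as activated mouse CD8T cells. They were taken by symbol from the deposited gene count table, which holds 10 such genes among its 54532 genes: the ligands Fasl, Tnf and Tnfsf10, the receptors Fas, Tnfrsf1a, Tnfrsf1b and Tnfrsf10b, the initiator caspase gene Casp8, its inhibitor Cflar and the kinase gene Ripk3. The CD8T cells came from mouse spleen, were stimulated with beads carrying anti-CD3 and anti-CD28, and shared a culture for 24 hr with thioglycolate-elicited peritoneal macrophages pretreated for 12 hr with IFN-γ at 10 ng/mL. Macrophages of the control group received no DB2313. Those of the other group received this inhibitor of the transcription factor Spi1 (PU.1), at 14 nM according to the methods. Each group had 3 samples. GEO's labels make the same division, but call the partner cells DC cells, whereas the paper calls them macrophages. The strain and age of the mice that gave the CD8T cells are not given in the sources used here, nor whether the samples came from separate cultures, so the p-values measure the spread between these samples, which may be technical.

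Death ligands of the TNF family kill by clustering receptors on a target cell. Fas, bound by Fas ligand, and Tnfrsf10b, the mouse receptor for TRAIL, carry a death domain that recruits the adaptor Fadd and caspase 8, whereas TNF receptor 1 (Tnfrsf1a) first builds a Tradd and Ripk1 complex that can signal survival or death. Cflar encodes c-FLIP, which resembles caspase 8 but lacks its catalytic activity and holds it in check. Where caspase 8 is blocked, Ripk3 can phosphorylate Mlkl and open the necroptotic route. Repeatedly stimulated T cells use Fas ligand to limit their own numbers, and activated macrophages are a major source of TNF.

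All 10 genes were counted in every library and passed edgeR's filter on low counts. With edgeR's quasi-likelihood test at an adjusted p below 0.05, 3 of the 10 were higher with DB2313 (Fasl, Tnfsf10 and Casp8) and 4 were lower (Tnf, Tnfrsf1a, Tnfrsf1b and Cflar), while Fas, Tnfrsf10b and Ripk3 did not pass. Of the 14883 genes tested, 20.8% were higher and 24.6% lower by this rule, so that 45.4% passed in either direction, and the share of the 10 genes that passed has to be read against that. The median log2 fold change of the 10 genes was -0.20, against 0.019 over all tested genes. None of the 10 changed by more than 2-fold in either direction with edgeR under TMM scaling or with DESeq2. Over all genes 6.67% passed the adjusted p together with an absolute log2 fold change of 1 (1.37% higher and 5.3% lower). At an unadjusted p below 0.05 there were 8 of the 10 with edgeR and 7 with DESeq2. The share of all tested genes at that threshold was not counted, but in edgeR it is at least the 45.4% that passed after adjustment.

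The libraries held RNA of more than T cells, and this touches every value that follows. A list of 20 T cell markers took 0.335% to 0.338% of all counts in the control libraries and 0.541% to 0.543% with DB2313, and all 20 rose, by a median of 0.61 on the log2 scale (Cd3e 0.32, Cd8a 0.53). A list of 25 macrophage markers took 1.51% to 1.55% and 0.645% to 0.657%, and 22 fell and 3 rose, with a median of -0.96 (Lyz2 -1.89, Csf1r -1.30). The 3 that rose were Ms4a7 (1.44), Marco (0.78) and Trem2 (0.55). In both groups the macrophage list took more of the counts than the T cell list. Lyz2 alone was at 7702 CPM in the control group and 2084 CPM with DB2313, against 118.5 and 171.5 CPM for Cd8a. Of 9 neutrophil markers 8 fell and 1 rose (Retnlg, 1.39, with 4 to 20 counts in a library). Of 8 tested dendritic cell markers 6 fell and 1 rose, whereas 5 of 7 tested B cell markers and 4 of 5 tested natural killer cell markers rose. The neutrophil list took 0.141% to 0.142% of control counts and 0.0559% to 0.0585% with DB2313. For the B cell list these shares were 0.00472% to 0.00514% and 0.00746% to 0.00766%. The dendritic cell list took 0.108% to 0.109% and 0.0968% to 0.0990%, but most of its counts were of Ccr7. That gene was at 889 CPM in the control group and 828 CPM with DB2313 (log2 fold change -0.10), so the share mostly follows it. Of the other genes in that list, Itgax was at -2.52 and Flt3, the 1 that rose, at 0.36. Siglech, a marker of plasmacytoid dendritic cells, had 0 counts in all 6 libraries. In such bulk samples fewer cells of a type and less RNA per cell cannot be told apart, and the part of these shares in the results on the death ligands and receptors was not tested. Changes are therefore given on the TMM scale and, where it matters, after scaling the libraries to the 20 T cell markers, a scaling that moved the median of all tested genes to -0.57. Lower genes made up 54.2% of all calls under TMM, 36.6% under library size and 41.8% under upper quartile scaling, and 98.6% after scaling to the T cell markers. Library totals ranged from 16611975 to 18596217 counts.

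The upstream sequences of 4 of the genes are shown because Spi1, the target of DB2313, recognises purine-rich sites containing GAGGAA, and because Tnf, Tnfrsf1b and Cflar were lower and Fasl was higher in the DB2313 group. Each is the 250 bases before the RefSeq start site (GRCm38.p6), printed 5′ to 3′ in the direction of the gene, with matches on either strand to GAGGAA (the PU box) or TATAAA (the TATA box) in capitals.
Tnf (chr17:35202008-35202257, minus strand): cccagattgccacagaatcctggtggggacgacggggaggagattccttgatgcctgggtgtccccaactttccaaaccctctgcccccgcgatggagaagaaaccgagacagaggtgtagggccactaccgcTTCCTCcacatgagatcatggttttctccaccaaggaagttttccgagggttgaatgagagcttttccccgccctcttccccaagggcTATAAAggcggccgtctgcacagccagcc
Tnfrsf1b (chr4:145246871-145247120, minus strand): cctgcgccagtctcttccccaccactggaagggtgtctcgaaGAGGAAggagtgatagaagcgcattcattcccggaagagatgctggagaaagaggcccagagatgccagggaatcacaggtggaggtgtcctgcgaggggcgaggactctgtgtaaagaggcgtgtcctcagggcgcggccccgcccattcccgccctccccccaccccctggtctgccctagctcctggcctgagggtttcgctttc
Cflar (chr1:58711241-58711490, plus strand): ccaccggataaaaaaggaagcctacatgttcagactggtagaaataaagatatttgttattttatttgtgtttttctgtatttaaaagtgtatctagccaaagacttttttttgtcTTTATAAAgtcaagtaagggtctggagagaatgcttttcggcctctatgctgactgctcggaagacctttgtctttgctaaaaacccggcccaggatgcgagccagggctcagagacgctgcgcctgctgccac
Fasl (chr1:161788496-161788745, minus strand): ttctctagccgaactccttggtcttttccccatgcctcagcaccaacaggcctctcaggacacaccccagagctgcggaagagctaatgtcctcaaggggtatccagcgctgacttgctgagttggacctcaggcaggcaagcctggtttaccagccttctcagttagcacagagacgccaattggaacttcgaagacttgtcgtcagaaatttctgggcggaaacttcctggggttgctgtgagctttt
RefSeq promoters were found for 9 of the 10 genes. Of these windows, those of Casp8, Ripk3, Tnfrsf1a and Tnfsf10 overlap the gene as the deposited counts place it. GAGGAA occurred in 2 of the 9, those of Tnf and Tnfrsf1b, against 23.3% of all 32851 promoter windows of that length. In Tnf it lay on the opposite strand, beginning 117 bases before the start site, and in Tnfrsf1b on the gene's strand, 208 bases before it. TATAAA occurred in 2 of the 9, Tnf and Cflar, against 12.4%. In Tnf it began 29 bases before the start site. In Cflar the matches on the opposite strands overlap and lay much further away, beginning 134 and 132 bases before the start site. Neither motif was found in the windows of Fasl or of Tnfrsf1a, the gene that fell most, whose window is not printed because it overlaps the gene as the table places it. Such matches are a description of these letters and not of binding. DB2313 was given to the macrophages, whereas the libraries are labelled as T cells, and which cells these transcripts came from was not tested.

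The 3 ligands moved in different directions. Fasl (ENSMUSG00000000817, chromosome 1 from 161780689 to 161788495, minus strand), which encodes Fas ligand, had 78, 59 and 55 counts in the control libraries and 116, 93 and 132 with DB2313. As CPM (counts relative to library size, scaled by TMM) these were 4.32, 3.43 and 3.36 against 6.28, 5.45 and 7.17. All DB2313 libraries were above all control libraries, and the mean rose from 3.71 ± 0.536 to 6.30 ± 0.862 CPM (SD, n = 3 each). The log2 fold change was 0.76 (standard error 0.18, 95% confidence interval 0.40 to 1.13, adjusted p = 0.00109, edgeR), or 69.8% more, the largest rise among the 10 genes. This was near the median rise of the T cell markers, and after scaling to those markers the Fasl difference was 0.17 and did not pass (adjusted p = 0.385, edgeR). The natural killer cell markers, from a cell type that also makes Fas ligand, took 0.00225% to 0.00241% of control counts and 0.00378% to 0.00430% with DB2313. Eomes had the most counts in that list, 187 to 237 in a control library. Gzma, also in the list, is among the genes by which the paper recognised CD8T cells. The share is therefore not specific to natural killer cells, and the part of these markers in the Fasl result was not tested.

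Tnfsf10 (ENSMUSG00000039304, chromosome 3 from 27317028 to 27342427, plus strand) encodes TRAIL. It stood at 40.6, 38.8 and 39.0 CPM in the control libraries and at 48.0, 41.9 and 48.5 CPM in the DB2313 libraries. The groups did not overlap, but the second DB2313 library lay close to the highest control library. Tnfsf10 rose from 39.5 ± 0.989 to 46.1 ± 3.67 CPM (SD, n = 3 each), a log2 fold change of 0.23 (standard error 0.067, adjusted p = 0.00828, edgeR). After scaling to the T cell markers its sign turned to -0.37 (adjusted p = 3.3e-05, edgeR).

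Tnf (ENSMUSG00000024401, chromosome 17 from 35199381 to 35202007, minus strand) encodes the inflammatory cytokine TNF. It was at 38.6, 37.9 and 38.5 CPM in the control libraries, which lay within a narrow range, and at 30.7, 29.95 and 28.04 CPM with DB2313, all lower. The mean fell from 38.3 ± 0.345 to 29.6 ± 1.37 CPM (SD, n = 3 each), a log2 fold change of -0.37 (standard error 0.068, adjusted p = 7.2e-05, edgeR). With library size scaling Tnf was at -0.28, with the upper quartile at -0.31 and after scaling to the T cell markers at -0.97.

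**Figure D1:**
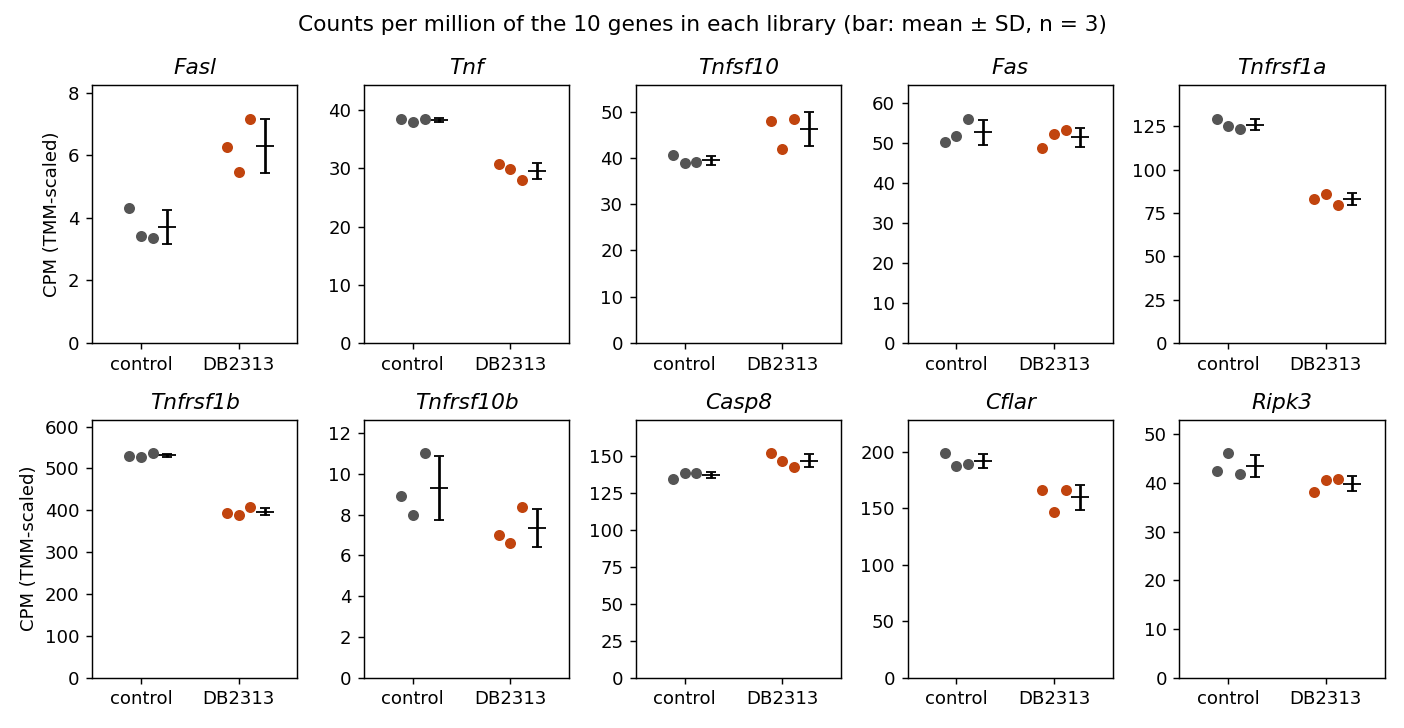
TMM-scaled CPM (y axis, from 0) of the 10 genes in the 3 control and 3 DB2313 libraries; points are libraries and bars the mean ± SD. Tnf, Tnfrsf1a, Tnfrsf1b and Cflar were lower in every DB2313 library, Fasl, Tnfsf10 and Casp8 were higher, and the groups overlapped in Fas and Tnfrsf10b.

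Among the receptors, both TNF receptors fell. Tnfrsf1a (ENSMUSG00000030341, chromosome 6 from 125349362 to 125362484, plus strand), the death domain receptor of TNF, was at 129.5, 125.3 and 123.2 CPM in the control libraries and at 83.3, 86.2 and 79.6 CPM with DB2313. The lowest control library was well above the highest DB2313 library. The mean fell from 126.0 ± 3.18 to 83.0 ± 3.30 CPM (SD, n = 3 each), a log2 fold change of -0.60 (standard error 0.043, adjusted p = 3.61e-11, edgeR), the largest fall among the 10 genes. Tnfrsf1b (ENSMUSG00000028599, chromosome 4 from 145213463 to 145246870, minus strand) encodes TNF receptor 2, which has no death domain and signals mainly to NF-kappa-B. It was the most abundant of the 10 genes, with 529.7, 528.3 and 535.9 CPM in the control libraries and 393.6, 389.6 and 407.3 CPM with DB2313. It fell by 25.3%, from 531 ± 4.07 to 397 ± 9.31 CPM (SD, n = 3 each), a log2 fold change of -0.42 (standard error 0.032, adjusted p = 1.31e-10, edgeR). After scaling to the T cell markers, Tnfrsf1a was at -1.20 and Tnfrsf1b at -1.01, the only 2 of the 10 past 2-fold under that scaling.

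Fas (ENSMUSG00000024778, chromosome 19 from 34290659 to 34327770, plus strand), the receptor for Fas ligand, was at 50.2, 51.8 and 56.2 CPM in the control libraries and at 48.9, 52.4 and 53.3 CPM with DB2313. The groups overlapped, and the difference of -0.033 on the log2 scale (95% confidence interval -0.16 to 0.094, adjusted p = 0.697, edgeR) was smaller than the spread between replicates. Its sign turned with library size scaling (0.062) and with upper quartile scaling (0.031), without passing. Scaled to the T cell markers, Fas was at -0.63 (adjusted p = 2.14e-09, edgeR).

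Tnfrsf10b (ENSMUSG00000022074, chromosome 14 from 69767472 to 69784411, plus strand), the TRAIL receptor, was counted between 113 and 180 times in a library, or 8.92, 7.97 and 11.0 CPM in the control group and 6.98, 6.62 and 8.37 CPM with DB2313. The highest DB2313 library lay above the lowest control library. Its log2 fold change was -0.34 (standard error 0.14, 95% confidence interval -0.64 to -0.040) and its adjusted p in edgeR was 0.0597. It was below 0.05 without control replicate 2 (-0.44, adjusted p = 0.0331) or without DB2313 replicate 3 (-0.45, adjusted p = 0.0249), while without control replicate 3 it was -0.20 (adjusted p = 0.323) and without DB2313 replicate 2 it was -0.27 (adjusted p = 0.178), all by edgeR, so that single libraries moved its size and its call. Scaled to the T cell markers, it was at -0.93 (adjusted p = 3.2e-06, edgeR).

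Casp8 and Cflar lie side by side on chromosome 1, in the same orientation and 36489 bases apart, and moved in opposite directions on the TMM scale. Casp8 (ENSMUSG00000026029, from 58795374 to 58847503, plus strand), which encodes the caspase that starts death receptor apoptosis, was at 134.7, 138.3 and 138.5 CPM in the control libraries and at 151.8, 146.3 and 142.6 CPM with DB2313. The groups did not overlap, but the gap between them was small. It rose from 137 ± 2.15 to 147 ± 4.62 CPM (SD, n = 3 each), a log2 fold change of 0.099 (standard error 0.038, adjusted p = 0.0371, edgeR). This call was lost with DESeq2 (adjusted p = 0.091), with no filter on low counts (0.0646, edgeR) and without control replicate 1 (0.128), control replicate 2 (0.0835), DB2313 replicate 1 (0.167) or DB2313 replicate 2 (0.0642), all by edgeR. Why the Casp8 call differed between edgeR and DESeq2 was not tested. Casp8 was at 0.19 with library size scaling (adjusted p = 0.00017, edgeR) and at 0.16 with the upper quartile (adjusted p = 0.00121, edgeR). After scaling to the T cell markers Casp8 was at -0.49 (adjusted p = 3.8e-11, edgeR). The gene model Gm37760, of biotype TEC, overlaps Casp8 on the same strand over 3841 bases and had 6 to 26 counts in a library.

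Cflar (ENSMUSG00000026031, from 58711508 to 58758884, plus strand), the gene of the caspase 8 inhibitor c-FLIP, was at 198.4, 187.2 and 189.2 CPM in the control libraries and at 165.8, 146.5 and 165.8 CPM with DB2313. Every DB2313 library was lower, with the second furthest from the control group. The mean fell from 192 ± 5.96 to 159 ± 11.2 CPM (SD, n = 3 each), a log2 fold change of -0.27 (standard error 0.044, adjusted p = 2.6e-05, edgeR). Cflar was at -0.17 with library size scaling, at -0.20 with the upper quartile and at -0.86 after scaling to the T cell markers.

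Ripk3 (ENSMUSG00000022221, chromosome 14 from 55784995 to 55788865, minus strand), the kinase of necroptosis, was at 42.5, 46.1 and 41.8 CPM in the control libraries and at 38.2, 40.5 and 40.9 CPM with DB2313. The groups did not overlap, yet the log2 fold change of -0.13 (standard error 0.065, 95% confidence interval -0.26 to 0.0082) did not pass (adjusted p = 0.12, edgeR). Ripk3 was at -0.031 with library size scaling, at -0.062 with the upper quartile and at -0.082 without control replicate 2, and after scaling to the T cell markers at -0.72 (adjusted p = 5.57e-10, edgeR). In all, the groups did not overlap in 8 of the 10 genes, against 53.1% of all tested genes. For each of these 8 genes a two-sided exact permutation test gave p = 0.1, the smallest that 3 against 3 allow.

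**Figure D2:**
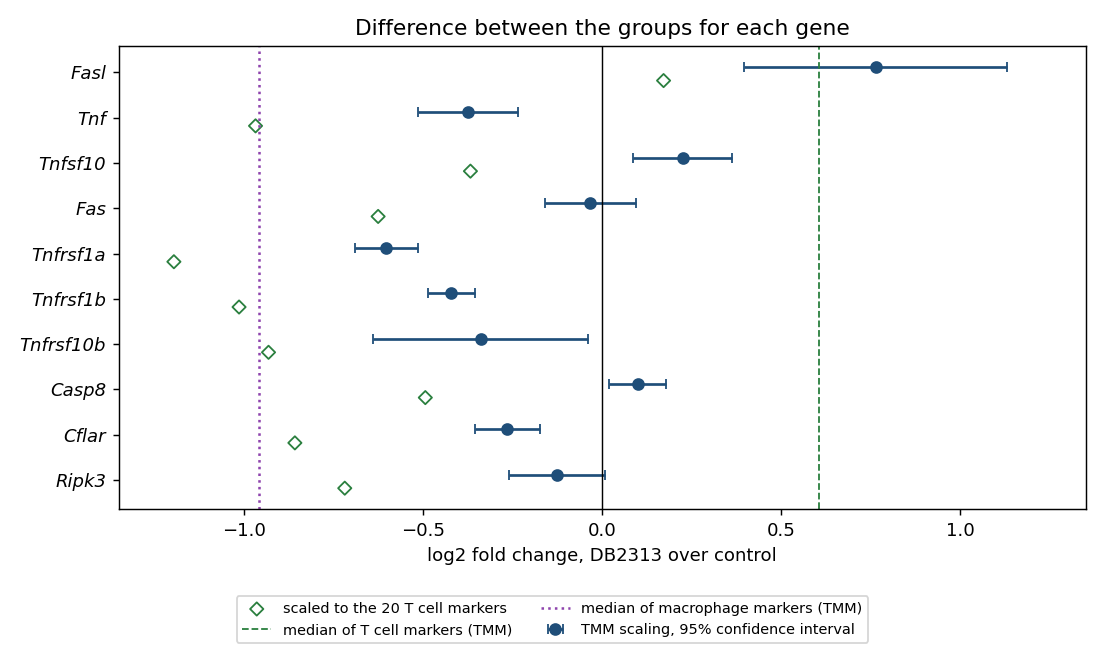
Log2 fold change of DB2313 over control (x axis) for the 10 genes (y axis): filled points with 95% confidence intervals are edgeR fits with TMM scaling, open diamonds are fits scaled to the 20 T cell markers, and vertical lines are the medians of the T cell (0.61) and macrophage (-0.96) markers. On the TMM scale the genes ran from -0.60 in Tnfrsf1a to 0.76 in Fasl, and with T cell scaling Fasl alone stayed above 0.

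After scaling to the T cell markers, 9 of the 10 genes were lower, Fasl was not called, and 0 were higher, also at an unadjusted p below 0.05 (edgeR; DESeq2 was not run with this scaling). Of all tested genes 77.6% were lower and 1.09% higher on that scale. On that scale the values ran from -1.20 in Tnfrsf1a to 0.17 in Fasl, with a median of -0.79, against -0.57 over all tested genes.

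Ratios between genes of the same library do not depend on the scaling. They can still shift with the mix of cells, whose part in them was not tested. Among 7 such ratios, which were chosen after the counts were seen, 6 did not overlap between the groups (two-sided exact permutation test, p = 0.1 for each and 0.117 after Benjamini-Hochberg adjustment over the 7, so that none could pass). The share of other gene pairs without overlap was not counted, and 53.1% of all tested single genes did not overlap. Casp8 had 0.679, 0.739 and 0.732 counts for each count of its inhibitor Cflar in the control libraries and 0.915, 0.999 and 0.86 with DB2313. The Casp8 to Cflar ratio was thus 1.29-fold higher in the DB2313 group, with means of 0.717 ± 0.0328 and 0.925 ± 0.0701 (SD, n = 3 each). The Fasl to Fas ratio was 0.0707 ± 0.0137 and 0.122 ± 0.0162 (SD, n = 3 each), or 1.74-fold higher. For TRAIL and its receptor, the ratio of Tnfsf10 to Tnfrsf10b was 4.32 ± 0.689 and 6.33 ± 0.542 (SD, n = 3 each), or 1.47-fold higher.

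Within the TNF system, Tnf fell by less than its death domain receptor, and the ratio of Tnf to Tnfrsf1a was 0.304 ± 0.00734 in the control group and 0.356 ± 0.0112 with DB2313 (SD, n = 3 each). The ratio of Tnfrsf1b to Tnfrsf1a was 4.22 ± 0.129 and 4.79 ± 0.303 (SD, n = 3 each). The ratio of Tnf to Tnfrsf1b overlapped between the groups, at 0.0722 ± 0.000581 and 0.0746 ± 0.00499 (SD, n = 3 each; two-sided exact permutation test, p = 0.4). Ripk3 had 0.317 ± 0.0156 counts for each count of Casp8 in the control group and 0.272 ± 0.0182 with DB2313 (SD, n = 3 each).

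**Figure D3:**
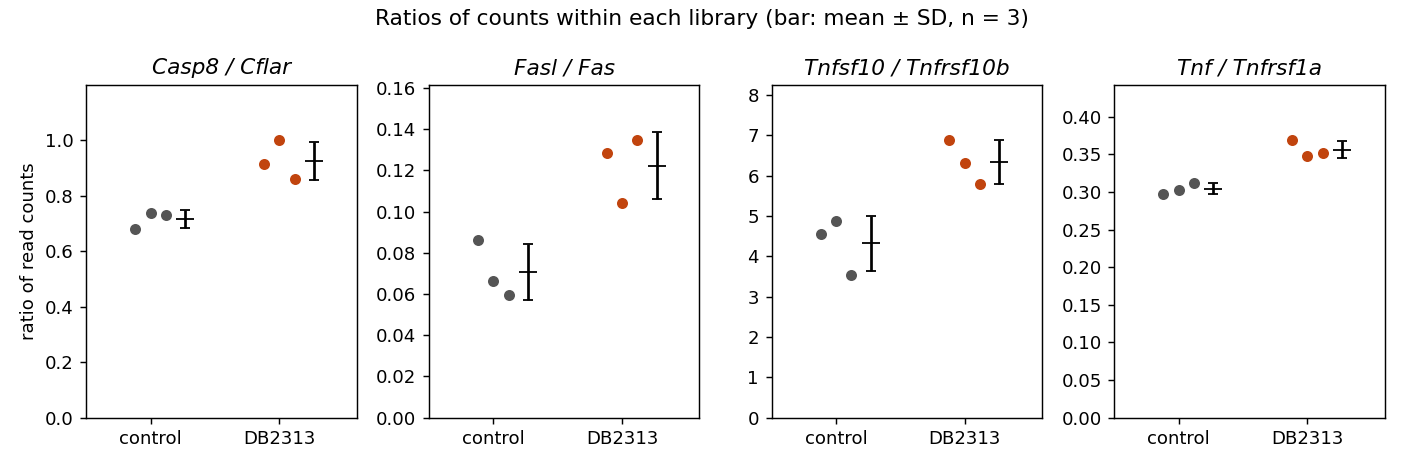
Ratios of read counts (y axis, from 0) of Casp8 to Cflar, Fasl to Fas, Tnfsf10 to Tnfrsf10b and Tnf to Tnfrsf1a in the 3 control and 3 DB2313 libraries; points are libraries and bars the mean ± SD. In each of these ratios the DB2313 libraries lay above the control libraries.

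To order the genes by level, the CPM were divided by the gene length given in the table. In the control group Tnfrsf1b was highest, at 139.2 CPM per kb, followed by Tnfrsf1a at 48.6, Casp8 at 47.4, Fas at 29.3, Tnf at 23.4, Ripk3 at 19.0, Cflar at 15.1, Tnfsf10 at 7.50, Fasl at 1.91 and Tnfrsf10b at 1.71 CPM per kb. The libraries of Tnfrsf1a and Casp8 overlapped in this order, and so did those of Fasl and Tnfrsf10b. In the DB2313 group Casp8, at 50.8 CPM per kb, stood above Tnfrsf1a, at 32.1, without overlap. Fasl, at 3.25 CPM per kb, stood above Tnfrsf10b, at 1.34, also without overlap, whereas Tnf at 18.04 and Ripk3 at 17.4 CPM per kb now overlapped. The length given for Cflar, 12669 bases, is the longest of the 10, and its level per kb depends on how much of that length is transcribed in these cells.

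Other genes of the pathway were taken as 50 genes in 6 lists, chosen with earlier results of these data known. Of these, 10 were higher and 20 lower at an adjusted p below 0.05 in edgeR, against the 20.8% and 24.6% of all tested genes, with a median log2 fold change of -0.036. With library size scaling 17 were higher, against 33.1% of all tested genes. After scaling to the T cell markers 47 were lower and 0 higher, with none higher at an unadjusted p below 0.05 either (edgeR), against 77.6% and 1.09% of all tested genes.

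Among 12 adaptors and kinases 4 rose and 2 fell. Fadd, the adaptor that Fas and caspase 8 share, was at 23.2 ± 0.503 and 23.6 ± 0.909 CPM (SD, n = 3 each) and did not pass, nor did Ripk1 (-0.057) or Mlkl (-0.15), the effector below Ripk3, on the log2 scale. The largest rises were in Madd, whose product binds the death domain of TNF receptor 1 (0.32), and in Zbp1, a nucleic acid sensor that engages Ripk3 (0.30), which rose from 446 ± 4.50 to 549 ± 6.40 CPM (SD, n = 3 each). Tradd, the adaptor of TNF receptor 1, rose by 0.23 (standard error 0.063). The falls were in Birc3 (-0.39) and Xiap (-0.28), both of which encode inhibitor of apoptosis proteins, while Birc2 rose by 0.12.

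Of 8 genes that edit ubiquitin on the TNF receptor complex, 2 rose and 2 fell, all by little. Rbck1 (0.24) and Rnf31 (0.10), subunits of the linear ubiquitin ligase, rose, and Sharpin, its other subunit, was at -0.14, a fall that passed, as did that of Tnip1 (-0.14). Tnfaip3, the gene of the feedback inhibitor A20, was at -0.11 and did not pass.

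Of 10 genes of the caspase cascade, 1 rose and 5 fell. Apaf1, the scaffold of the apoptosome, fell from 74.3 ± 5.86 to 59.9 ± 5.49 CPM (SD, n = 3 each; log2 fold change -0.31, standard error 0.065). Casp9, the caspase that the apoptosome activates (-0.30), and Cycs, which encodes cytochrome c (-0.15), fell as well. Dffb, the nuclease that cuts DNA in apoptosis, rose by 0.37. Bid, which links caspase 8 to mitochondria, was at -0.028 and did not pass.

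Of 6 genes for shedding or cleavage of TNF and Fas ligand, 4 fell and 2 did not pass. Rhbdf1, at 2.63 ± 0.528 and 3.80 ± 0.898 CPM (SD, n = 3 each), had an adjusted p of 0.0658. Rhbdf2, the cofactor of the TNF-releasing protease, fell by 0.64 on the log2 scale, Sppl2a by 0.57, Adam17, that protease itself, by 0.35 and Adam10, which sheds Fas ligand, by 0.20.

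Among 5 further ligands, Ltb, which encodes lymphotoxin beta, rose from 558 ± 22.3 to 821 ± 21.2 CPM (SD, n = 3 each; log2 fold change 0.56, standard error 0.034), close to the median of the T cell markers. Tnfsf12, the gene of TWEAK, fell from 13.4 ± 0.628 to 6.44 ± 1.18 CPM and Tnfsf15 from 1.25 ± 0.288 to 0.221 ± 0.0482 CPM (SD, n = 3 each), with log2 fold changes of -1.05 and -2.46. These were the only 2 of the 50 genes called past 2-fold on the TMM scale. Tnfsf15 was near the floor, with 28, 21 and 16 counts in the control libraries and 4, 3 and 5 with DB2313. The standard error of its log2 fold change was 0.47. Lta, the neighbour of Tnf that encodes lymphotoxin alpha, fell by 0.18.

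Among 9 further receptors 2 rose and 4 fell. Tnfrsf26 (0.46) and Tnfrsf25, the death receptor DR3 of T cells (0.34), rose. Tnfrsf14 (-0.77), Tnfrsf23 (-0.77), Ltbr, the lymphotoxin beta receptor (-0.70), and Tnfrsf21, the death receptor DR6 (-0.55), fell. Tnfrsf22, Tnfrsf23 and Tnfrsf26 are similar in sequence, so the division of reads among them is uncertain.

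**Figure D4:**
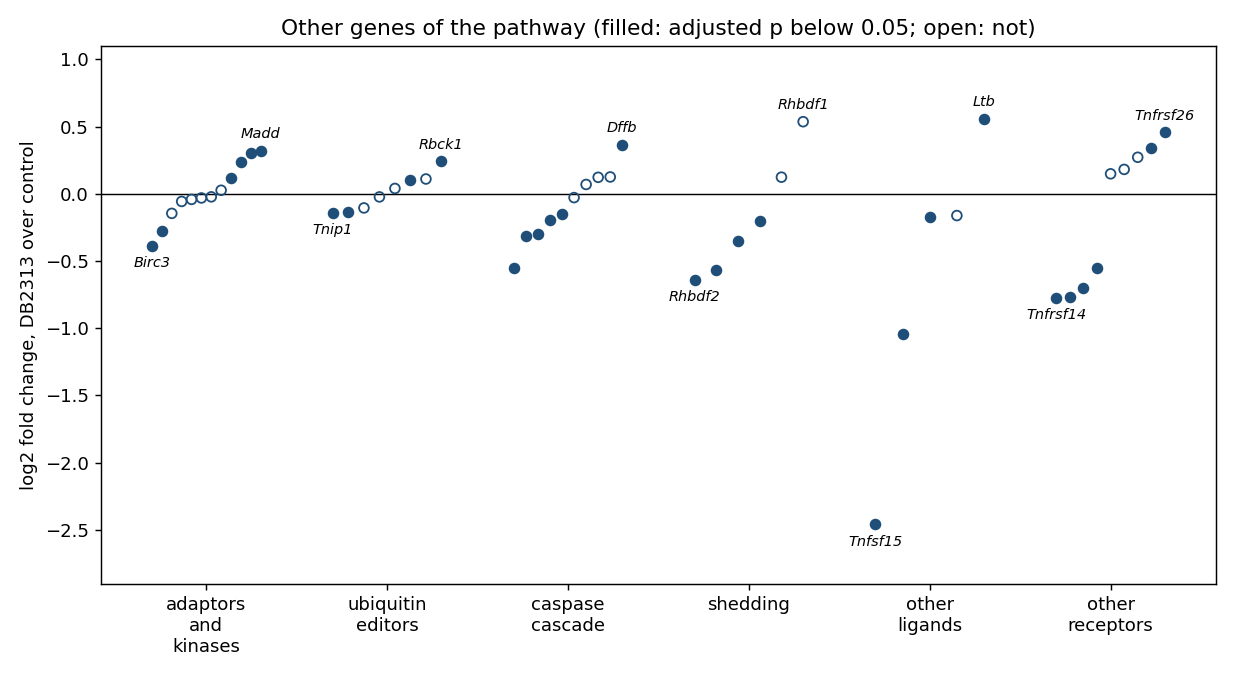
Log2 fold change of DB2313 over control (y axis) for 50 other genes of the pathway in 6 lists (x axis); each point is a gene, filled where the adjusted p was below 0.05 in edgeR, and names mark the lowest and highest gene of a list, except the lowest of the caspase cascade. Tnfsf15, with 3 to 5 counts in a DB2313 library, was lowest at -2.46 and Ltb highest at 0.56.

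The protein-coding genes most like the largest riser and the largest faller in pattern were found by Pearson's r of log2 CPM over the 6 libraries, among 9334 and 9333 genes that averaged 10 CPM or more. Closest to Fasl were Ccdc88c, Rbm25, Nemp1, Ptprc and Rnf20, with r from 0.991 to 0.994, and closest to Tnfrsf1a were Arf3, Map3k14, Grn, Inppl1 and Stard9, with r from 0.999 to 0.9995. Over 6 libraries in 2 groups such values mostly record the difference between the groups, and their sizes differed: the genes near Fasl rose by 0.18 to 0.27 on the log2 scale, less than Fasl itself.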

How the data were processed

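The 6 RNA-seq libraries, reported as CD8T cells but also holding RNA of other cells, were grouped by GEO's labels. Of these, 3 were from cultures with untreated and 3 from cultures with DB2313-treated macrophages. The authors deposited raw read counts per gene, without normalization. The paper names LifeScope for alignment and counting, whereas the submitters' processing notes name CASAVA 1.8, HISAT2 2.0.5 and featureCounts 1.5.0-p3. Genome build and strandedness are not given in the sources used here; 98.3% of the 54495 genes shared with GENCODE vM21 had its GRCm38 coordinates, including 9 of the 10 genes described. Totals ranged from 16611975 to 18596217 counts. Standard errors and intervals reflect the spread between these libraries as well as counting error.

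The count test was edgeR 4.0.16 in R 4.3.3 (filterByExpr, TMM, glmQLFit, glmQLFTest; Benjamini-Hochberg over the 14883 tested genes; adjusted p below 0.05), after testing the scripts on simulated data, where DESeq2 recovered fewer small changes than edgeR and a minimum recovery was in the end required of edgeR alone. Standard errors come from the fold change and its F statistic. Within-group chi-square per gene was 2.48 to 3.81, above sampling noise, and edgeR's common coefficient of variation was 4.67%. All 6 libraries were counted as separate, but these values cannot tell separate cultures from separate preparations of the same culture. DESeq2 1.42.0, other scalings and filters, a replicate block and leaving out each sample were the alternatives. The genes and lists were chosen with earlier results of these data known. Named are the 10 genes, up to 2 rises and 2 falls per list by size among calls, and the 5 genes most like the largest riser and faller; Fadd, Ripk1, Mlkl, Tradd, Birc2, Tnfaip3, Casp9, Cycs, Bid, Adam10, Adam17, Rhbdf1, Lta, Ltbr, Tnfrsf21 and Tnfrsf22 were named after their values were seen. Some genes of these lists are counted but not reported here by name. The ligand to receptor and Casp8 to Cflar ratios were also chosen then. The gene length column of the table was used for levels per kb.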

Additional observations from a re-analysis of the deposited data

How the results depend on the processing

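Of 130 comparisons of the 10 genes with an alternative, 110 changed neither direction nor call, 8 lost the call, 6 gained it and 6 changed sign. Tnf, Tnfrsf1a, Tnfrsf1b and Cflar were lower at an adjusted p below 0.05 in each of those 13 alternatives per gene. Under TMM scaling none of them was called once an absolute log2 fold change above 1 was also required. After scaling to the T cell markers Tnfrsf1a (-1.20) and Tnfrsf1b (-1.01) were past it. Scaling to the T cell markers moved most, as it sets the markers' own rise to about 0: 0 of the 10 genes were higher and 9 lower, 0 and 47 of the 50 other pathway genes, and 162 and 11551 of all genes, against 3096 and 3667. Under it Casp8 (-0.49) and Tnfsf10 (-0.37) reversed, Fasl was weaker (0.17), and Fas (-0.63), Tnfrsf10b (-0.93) and Ripk3 (-0.72) were past the threshold. On the TMM scale, requiring also an absolute log2 fold change above 1 left 0 and 0 of the 10 genes, 0 higher and 2 lower pathway genes, and 204 and 789 of all genes, by construction. With library size scaling 17 pathway genes and 4931 of all genes were higher and Fas was at 0.062; with the upper quartile Fas was at 0.031. The cause was not tested.

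Casp8 did not pass with DESeq2 (0.10) or without a filter (0.10). With each library left out, Casp8 ranged from 0.075 to 0.12, Fas from -0.066 to 0.017 (above 0 without control replicate 3, 0.017, or DB2313 replicate 1, 0.0048) and Tnfrsf10b from -0.45 to -0.20. No source used here says that the replicate numbers pair samples. Same-numbered libraries correlated at -0.0111 to 0.00253 in their deviations from the group means, and the others at -0.023 to 0.0284. These values cannot exclude a shared culture, since genes with few counts weigh as much as the rest. With the replicate block Casp8 (0.099) no longer passed, and Tnfrsf10b (-0.34) did. Fasl and Tnfrsf10b had the fewest counts, and their intervals were the widest.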
